A study of Rattus norvegicus with 71 samples.

Results

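RNA of the thoracic artery, called aorta below, was compared between hybrid and inbred rats of 15 months. Of the 71 arrays in the series, 11 were chosen by their labelled source: 6 from Fischer344 x Brown Norway hybrids (F344xBN, FBN below) and 5 from the parental strain Brown Norway (BN). The other arrays held aorta of 6 and 24 months and mesenteric artery of all 3 ages, in both strains. Total RNA was labelled with biotin and hybridised to Affymetrix rat arrays, whose deposited signals are on a linear scale. No allele, transgene or drug is named for either group. The labels cite a model of collateral arteries that is made by closing a neighbouring vessel, without saying which vessels came from it, and do not state sex, or whether each array was a separate animal. P-values therefore measure only the spread between arrays, and the number of arrays limits the precision of every value. In the main tests of probe sets that spread came from the aorta arrays of all 3 ages, or from all 71 arrays where mesenteric artery enters.

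The aorta is a muscular and elastic tube. Smooth muscle cells and elastic fibres form its middle layer, an endothelium lines it, and fat lies on its outside. In rodents the fat along the thoracic aorta is largely brown fat, which burns fatty acids in mitochondria through the uncoupling protein Ucp1 and also makes fatty acids from glucose. A hybrid of Fischer344 and BN carries 1 BN genome beside 1 of the other parent.

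The 6 FBN samples were not alike. Tissue mass, given per sample in the labels, was 20.1, 25.2, 26.3, 25.9 and 25.5 mg in BN. In FBN it was 29.8 and 27.7 mg in replicates 1 and 2 and 11.7, 13, 9.2 and 6 mg in replicates 3 to 6. The means were 24.6 ± 2.55 mg (SD, n = 5) in BN and 16.2 ± 10.01 mg (n = 6) in FBN, and the ranges overlapped (exact permutation test, two-sided, p = 0.0909, adjusted p = 0.136 over 6 array measures, smallest possible p = 0.00433). Pearson's r between arrays, across probe sets, was 0.949 to 0.973 within BN and 0.96 to 0.976 among the 4 lighter FBN arrays. It was 0.928 to 0.958 between the 2 heavier FBN arrays and BN, but 0.79 to 0.927 between the 4 lighter ones and BN. The split of the FBN arrays at 20 mg was chosen after the data were seen, and results below are given for all 6 FBN arrays and for both sides of that split.

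Marker genes followed tissue mass. Ucp1 had signals of 86157, 82249.8, 109810.0, 87544 and 95226 in BN, 88357 and 100440.0 in the heavier FBN arrays and 47524, 40023, 35686 and 27432 in the lighter ones. The 4 lighter FBN arrays lay below every other array. The brown adipocyte score, the mean log2 signal of 16 listed markers, was 12.33 to 12.92 in BN, 12.25 and 12.88 in the heavier FBN arrays and 10.62 to 11.68 in the lighter ones. The score of 15 general adipocyte genes was 14.68 to 15.06, 14.75 and 14.83, and 12.80 to 13.74, in the same order. The smooth muscle score (17 genes) ran the other way, 12.77 to 13.70 in BN, 13.45 and 12.44 in the heavier and 14.06 to 14.42 in the lighter FBN arrays. Defining markers of the labelled tissue were bright in all arrays: Acta2, smooth muscle actin, had signals of 10828 to 44021 over the 11 arrays. In such bulk samples fewer cells of a type and less RNA per cell cannot be told apart.

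**Figure D1:**
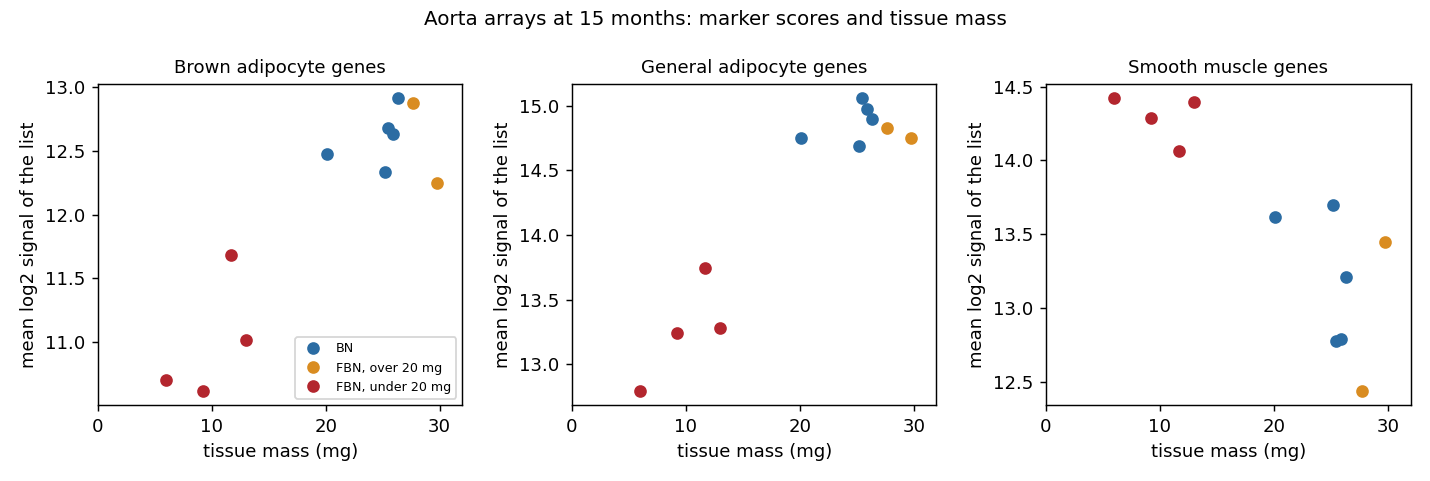
Mean log2 signal of brown adipocyte, general adipocyte and smooth muscle genes (y axes) against tissue mass in mg (x axis), 1 point per aorta array at 15 months. The 4 FBN arrays under 20 mg have brown adipocyte scores of 10.62 to 11.68, below the 12.25 to 12.92 of the other 7 arrays, and the highest smooth muscle scores.

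Array controls and strain markers were also read before the comparison. Signals of the hybridization spike-ins, added to each sample after labelling, did not overlap: their mean log2 was 13.11 to 13.40 in BN and 12.29 to 12.78 in FBN (difference -0.67, exact permutation p = 0.00433, the smallest possible, adjusted p = 0.026). The Actb signal near the transcript's end relative to that near its start, a sign of RNA length, differed by -0.48 log2 units (adjusted p = 0.0519) and the poly-A spike-ins by -0.21 (adjusted p = 0.136). A score of 1032 strain markers, chosen from aorta arrays of 6 and 24 months alone, lay above 0 in 5 of the 6 FBN and below 0 in all 5 BN arrays of 15-month aorta. It did not separate strains alone, as it lay above 0 in all 6 BN as well as all 6 FBN arrays of 15-month mesenteric artery. FBN replicate 2 was at -0.65 beside -0.89 to -0.36 in BN and 0.06 to 1.46 in the other FBN arrays, and is called below the array labelled FBN replicate 2. With 60 markers of at least 2 log2 units it lay at -0.46, between BN (-1.60 to -1.04) and the others (from 0.54), and with 169 markers also called the same way in mesenteric artery at -0.14, outside BN (-0.89 to -0.44; the others from 0.41). Both of these scores too lay above 0 in all 6 FBN and below 0 in none of the BN arrays of 15-month mesenteric artery. For Trio, Echdc2 and Prps2, genes named below from these same arrays, replicate 2 lay outside the BN range on the FBN side. Whether its label is right was not tested further. With the hybridization spike-in signal as a covariate, an alternative added after the data were seen, 109 of 186 strain differences followed through the alternatives changed sign, 68 of them called and 41 not. Of the 125 called ones 18 kept direction and call and 39 direction only. Those that changed sign include Adtrp, Scgb1c1, Crocc, Odad4, Fabp3, Eci1, Decr1, Acads, Insig1, Hspg2, Timp1 and Npas2, and the values of those called in either fit stand in the closing section. As the spike-ins separate the strains, the part of the hybridization in these differences and that of the strain cannot be told apart by this fit.

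Differences are given as FBN minus BN in log2 units ± standard error, from limma's moderated two-sided test on 16717 probe sets whose mean signal reached 292 in aorta or in mesenteric artery, with Benjamini-Hochberg adjusted p-values called under 0.05. Genes said to be higher or lower passed this test. At 15 months 1689 probe sets (10.1%) were higher in FBN and 1901 (11.4%) lower, or 1136 and 1410 named genes. All 6 FBN arrays lay above all 5 BN arrays in 551 probe sets (3.3%) and below them in 543 (3.25%). The median difference over all tested probe sets was 0.07. The count of calls differed with tissue mass: the 4 lighter FBN arrays alone differed from BN in 8161 probe sets (48.8%; 26.8% higher and 22.1% lower), the 2 heavier in 156 (0.933%, 99 higher and 57 lower), and the lighter from the heavier FBN arrays in 5037 (30.1%; 14.9% lower in the lighter). These 3 comparisons share arrays, and their counts also depend on the number of arrays, 4 or 2. The heavier pair includes the array labelled FBN replicate 2. That pair had the sign of the main call in 1634 of the 1689 higher and 1735 of the 1901 lower calls, which it helped to make. Its median differences there were 0.32 and -0.29, against 0.84 and -1.18 in the lighter arrays. With the brown adipocyte score as a covariate 1004 probe sets (6.01%) were called, among them 328 of the 1689 higher and 336 of the 1901 lower calls. Leaving out the array labelled FBN replicate 2 gave 3744 higher and 3101 lower calls. Leaving out FBN replicate 6 gave 777 and 857, FBN replicate 4 813 and 887, FBN replicate 5 869 and 959, BN replicate 4 832 and 951, and BN replicate 5 822 and 882. Without FBN replicate 3 there were 1073 higher calls. The part of tissue makeup in these calls was not tested beyond these fits.

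One set of genes differed between the strains in every array, at either tissue mass. Trio encodes a guanine nucleotide exchange factor. BN arrays gave 299, 327, 227, 300.2 and 149, the heavier FBN arrays 3360.2 and 1969.7 and the lighter ones 3721, 3933, 3921 and 4406. Trio thus differed by 3.78 ± 0.25 (adjusted p = 3.53e-12). Every FBN array was at least 6-fold above every BN array. Msrb3 encodes an enzyme that repairs oxidised methionine. The Msrb3 signal was 329, 424, 271, 214 and 324 in BN, 2313 and 1389 in the heavier FBN arrays and 6939.5, 8791, 7279.9 and 7675 in the lighter. The difference was 3.95 ± 0.44 (adjusted p = 1.74e-07). Dmp1, a matrix phosphoprotein known from bone and dentin, was higher too. Its signals were 107, 90.1, 69.9, 129 and 83.9 in BN, 1574 and 712 in the heavier and 3876, 6194, 4447 and 5624 in the lighter FBN arrays. Dmp1 thus differed by 4.98 ± 0.55 (adjusted p = 1.87e-07). Its BN signals were under 292, the level of the filter, which limits how well the size of the difference is known. In both genes the heavier FBN arrays lay between BN and the lighter FBN arrays, apart from both.

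The integrin Itga1, a collagen receptor, was higher by 2.91 ± 0.28 (adjusted p = 8.54e-09), with BN signals of 609, 478, 631, 335 and 532, 3121 and 2116 in the heavier and 3673 to 5926 in the lighter FBN arrays. Fubp3, a nucleic acid binding protein, was higher by 2.52 ± 0.16 (adjusted p = 2.22e-12), with 136 to 188 in BN and 602 to 1056 in FBN. Prps2, a synthetase of the nucleotide precursor phosphoribosyl pyrophosphate, had 355 to 542 in BN and 1461 to 2021 in FBN (1.96 ± 0.20, adjusted p = 4.15e-08), and its 2 other probe sets were higher by 2.09 and 2.42. Echdc2, a relative of the enoyl-CoA hydratases, was highest in the heavier FBN arrays, at 1651 and 1864, against 868 to 938 in the lighter ones and 77.7 to 265 in BN (2.79 ± 0.42, adjusted p = 4.48e-05). For these 6 genes and Dmp1 no array of one strain reached the other's range. All BN signals of Fubp3 and Echdc2, and some of those of Trio and Msrb3, were under 292, the level of the filter. The sizes of their differences have the same limit as that of Dmp1.

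Smaller differences of the same kind were found for Trak2, which links mitochondria to motor proteins (1.29 ± 0.12, adjusted p = 7.86e-09), the telomere helicase Rtel1 (1.30 ± 0.13, adjusted p = 1.09e-08) and the mitochondrial ribosomal protein Mrpl52 (1.26 ± 0.13, adjusted p = 2.47e-08). Rtel1 signals were 269 to 443 in BN and 804 to 906 in FBN, and those of Mrpl52 454 to 725 and 1173 to 1618. Pxmp4, a peroxisomal membrane protein, was lower by the same measure: 2796, 2705, 2313, 2989 and 3127 in BN, 1401 and 1366 in the heavier and 885 to 1249 in the lighter FBN arrays (-1.28 ± 0.14, adjusted p = 1.58e-07). Its other probe set gave -1.29. Trio, Fubp3, Trak2, Rtel1, Mrpl52, Prps2 and Pxmp4 kept their sign and call in each of the 25 or 26 alternative fits run for them, and so did Dmp1, Msrb3, Itga1 and Echdc2.

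**Figure D2:**
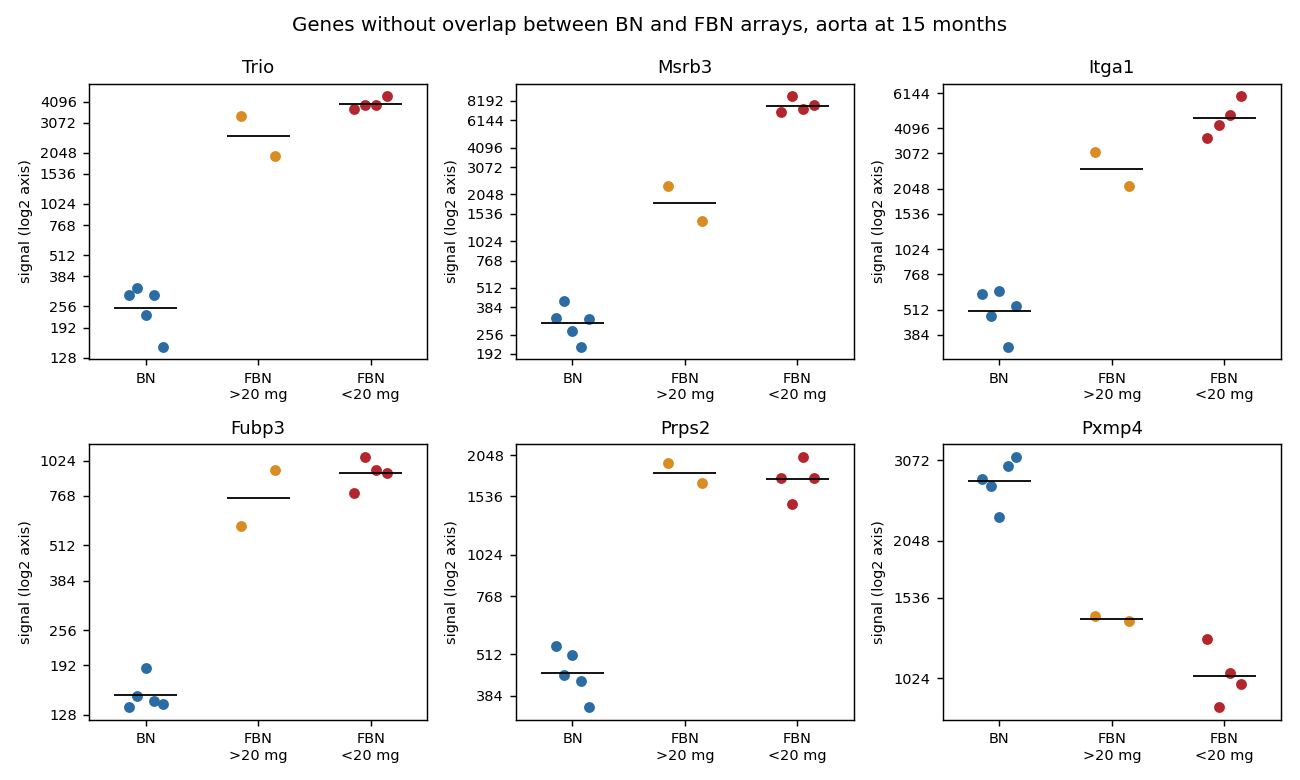
Signal of 6 genes in each aorta array at 15 months (y axes, log2 scale), in BN, the 2 FBN arrays over 20 mg and the 4 under 20 mg; lines are geometric means. No FBN array reaches the BN range in any panel, as for Trio with 149 to 327 in BN and 1969.7 to 4406 in FBN.

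The same genes differed at other ages and in the other vessel, in arrays that share none with the 15-month aorta. Trio differed by 3.68 at 6 months, 3.94 at 24 months and 3.99 in mesenteric artery of 15 months, Msrb3 by 2.59, 3.62 and 3.13, and Echdc2 by 3.43, 3.34 and 3.03, all called. Prps2 gave 1.73, 1.997 and 1.90, and Pxmp4 -1.11, -1.01 and -0.61, again called. Dmp1 was higher in all 3 as well (4.15, 5.20 and 2.02), but by 2.96 more in aorta than in mesenteric artery (adjusted p of that difference = 0.00305). Itga1 also differed more in aorta (by 1.15, adjusted p = 0.0257). Several of these genes have another probe set that did not follow. The second probe set of Trio differed by 0.22, of Msrb3 by 0.72 and of Trak2 by 0.06, none called, and that of Fubp3 by -0.55, called in the opposite direction. Whether the probes of an array match both parents' alleles equally was not tested.

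Of the 1689 higher calls 532 (31.5%) were also called higher among the 1290 of the 6-month aorta (41.2% of those), and of the 1901 lower calls 806 (42.4%) among 1493 (54.0%). In all 2783 probe sets (16.6%) were called at 6 months and 2527 (15.1%) at 24 months. At 24 months 493 of the higher and 637 of the lower calls recurred, 41.3% and 47.8% of the 24-month calls. FBN tissue mass varied there too, 18.6 ± 8.92 mg at 6 and 18.6 ± 7.46 mg at 24 months (n = 6 each), against 25.9 ± 3.50 and 25.4 ± 2.79 mg in BN. In mesenteric artery of 15 months 280 probe sets (1.67%) were called, and 84 of 166 higher and 41 of 114 lower ones were shared with the aorta, 50.6% and 36.0% of the mesenteric calls. Tissue mass of those samples was 13.3 ± 5.79 mg in FBN and 15.2 ± 2.93 mg in BN (n = 6 each). The labels do not say whether both vessels came from the same animals.

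Genes of fatty acid synthesis were lower in FBN aorta, and for the leading members the heavier FBN arrays too had signals under the BN range. Of 21 tested genes of fatty acid and triglyceride synthesis 12 were lower and 0 higher (background 11.4% lower), with a median of -1.65. Their median was -2.32 in the lighter and -0.39 in the heavier FBN arrays. Me1, the malic enzyme that supplies NADPH for the synthesis, differed by -2.54 ± 0.43 (adjusted p = 0.000225), from 41674, 34373, 43342, 45548 and 51300.3 in BN to 15139.7 and 17492 in the heavier and 2899.9 to 9672 in the lighter FBN arrays. Slc25a1 carries citrate out of mitochondria as the carbon source. BN arrays gave 15231, 10756, 16147, 15495 and 19019.8, the heavier FBN arrays 6906 and 6004 and the lighter ones 3071, 2399, 2492 and 1819.9. The difference was -2.18 ± 0.36 (adjusted p = 0.000184). Elovl6 extends the chain made by fatty acid synthase. The Elovl6 signal was 24561, 18173, 26633, 22122 and 27192 in BN, 4737 and 8587 in the heavier FBN arrays and 1903, 1106, 789 and 789 in the lighter. Elovl6 thus differed by -3.60 ± 0.68 (adjusted p = 0.000791). Its other probe set differed by -3.41. Fasn, the fatty acid synthase itself, had signals of 77159.6, 66488, 77186, 76498 and 83999.9 in BN, 47276 and 53347 in the heavier and 12627 to 34076 in the lighter FBN arrays (-1.46 ± 0.30, adjusted p = 0.00171). In all 4 genes the groups were apart and the heavier FBN arrays lay between BN and the lighter ones.

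In 9 of the 21 genes both heavier FBN arrays lay below all 5 BN arrays, and so did all 6 FBN arrays; over all tested probe sets the heavier pair did so in 7.76%. The heavier pair alone passed the test in 0 of the 21 genes (background 0.933%), or 3 at an unadjusted p under 0.05 (Me1 -1.40 ± 0.52, adjusted p = 0.263). With the brown adipocyte score as a covariate 7 of the genes were still called lower (6.01% of all probe sets were called there, in either direction), with differences for Me1 of -1.40 (adjusted p = 1.27e-06), Elovl6 of -1.74, Slc25a1 of -1.35, and Fasn, Acss2, Acaca and Acly of -0.55 to -0.82. Among the other called members were Scd, the stearoyl-CoA desaturase (-2.14 ± 0.59), the acyltransferase Agpat2 (-1.89 ± 0.54) and Thrsp, a lipogenic nuclear protein (-1.42 ± 0.40). In mesenteric artery of 15 months 1 of the 21 genes was lower (background 1.67% in either direction), Fasn with -1.01 (adjusted p = 0.0311), and Me1 differed by -0.11 (adjusted p = 0.954).

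Cholesterol synthesis genes had a similar median at either tissue mass, but single members differed between the lighter and heavier FBN arrays in both directions. The lighter were higher for Sqle (1.57), Pmvk (0.95), Cyp51 (0.79), Msmo1 (0.78) and Idi1 (0.75). They were lower for Dhcr7 (-2.00) and Nsdhl (-1.39), all called (30.1% called over all probe sets). Of 14 tested members 6 were lower and 0 higher (background 11.4% and 10.1%), and the median was -0.49, with -0.46 in the heavier and -0.49 in the lighter FBN arrays. The heavier pair alone passed the test in 0 of the 14 (5 at an unadjusted p under 0.05, and 0.933% called over all probe sets), and the lighter arrays alone were lower in 8 and higher in 3 (background 22.1% and 26.8%). The mean log2 signal of the list was 10.87 to 11.13 in BN, 10.57 and 10.61 in the heavier FBN arrays and 10.40 to 10.74 in the lighter ones, without overlap between the strains. Lss, the cyclase that makes lanosterol, differed by -0.96 ± 0.20 (adjusted p = 0.00177), from 1634, 1266, 1566, 1346 and 1551 in BN to 748 and 855 in the heavier and 717 to 762 in the lighter FBN arrays. Fdft1, squalene synthase, had signals of 2736, 2075, 1984, 3845 and 2861 in BN, 1331 and 1387 in the heavier and 829.3 to 1170.0 in the lighter FBN arrays (-1.22 ± 0.25, adjusted p = 0.00193). The other probe set of Fdft1 differed by -0.23 and was not called. Fdps, which makes farnesyl diphosphate, differed by -0.63 ± 0.17 (adjusted p = 0.0133), from 6909, 7071, 7761, 7306 and 6533 in BN to 3814 and 5331 in the heavier and 3875 to 5799 in the lighter FBN arrays. Insig1, the sterol sensor that holds back this pathway, had signals of 16856, 16986, 13609, 12200.4 and 13007 in BN, 9259 and 9193 in the heavier and 3036 to 4601 in the lighter FBN arrays (-1.54 ± 0.45, adjusted p = 0.019). Both heavier FBN arrays lay below all BN arrays in 8 of the 14 genes (background 7.76%). Sqle, squalene epoxidase, went the other way without passing the test (0.77 ± 0.35, adjusted p = 0.0989; -0.28 for the heavier FBN arrays alone). With the brown adipocyte score as a covariate Lss (-0.66), Fdft1 (-0.76) and Sc5d (-0.67) were called lower, and Fdps (-0.41, adjusted p = 0.15) and Insig1 (-0.47, adjusted p = 0.373) were not. In mesenteric artery 0 of the 14 genes were called (median -0.01, background 1.67%), a count that unadjusted p-values under 0.05 put at 3.

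Promoters are shown for some of these genes because several members of both lists were lower in FBN. Bases 250 to 1 before the start of transcription are given in the gene's direction, from RefSeq on GRCr8, with the CCAAT box or its reverse complement ATTGG in capitals.

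Lss (chr20:12118231-12118480, minus strand): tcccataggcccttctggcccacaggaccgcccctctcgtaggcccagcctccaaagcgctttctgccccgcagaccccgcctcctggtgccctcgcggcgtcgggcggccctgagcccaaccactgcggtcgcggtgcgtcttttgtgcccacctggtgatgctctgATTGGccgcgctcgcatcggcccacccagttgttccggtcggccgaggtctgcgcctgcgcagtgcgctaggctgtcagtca

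Fdps (chr2:176804817-176805066, minus strand): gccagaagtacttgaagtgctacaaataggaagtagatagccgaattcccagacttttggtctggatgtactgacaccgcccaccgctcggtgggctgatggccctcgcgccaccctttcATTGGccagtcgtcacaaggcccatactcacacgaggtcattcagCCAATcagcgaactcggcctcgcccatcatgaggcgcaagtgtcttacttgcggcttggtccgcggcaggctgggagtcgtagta

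Slc25a1 (chr11:96559804-96560053, plus strand): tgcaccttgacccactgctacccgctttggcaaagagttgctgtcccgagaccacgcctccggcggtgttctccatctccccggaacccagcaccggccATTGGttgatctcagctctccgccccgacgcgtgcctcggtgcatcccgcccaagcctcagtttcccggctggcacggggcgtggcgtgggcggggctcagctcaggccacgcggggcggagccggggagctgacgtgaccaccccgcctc

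CCAAT, searched on both strands, occurred at least once in 34% of the 33469 promoters of this length in the table, which includes uncharacterised genes. It occurred in 9 of the 11 cholesterol synthesis genes with an entry (81.8%), in 12 of 16 of fatty acid and triglyceride synthesis (75%) and in 3 of 15 of mitochondrial fatty acid oxidation (20%). Members that were not called held it as well, with 5 matches in the mevalonate kinase gene Mvk (0.01 ± 0.17, adjusted p = 0.973), and Me1 had no match. The motif TCACNCCAC, a form of the sterol response element, matched 0.974% of all promoters and 0 of the members of these 3 lists; this says only that these letters are not in the window.

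**Figure D3:**
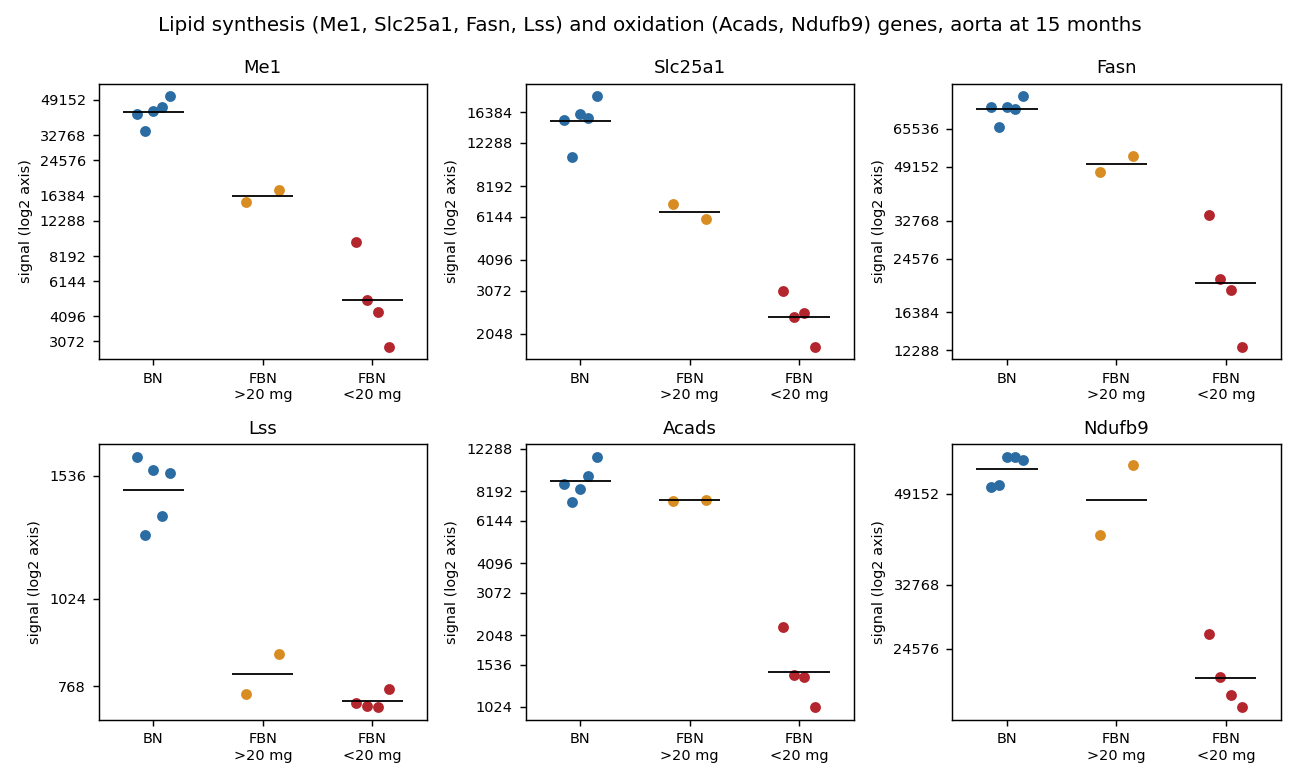
Signal of 4 lipid synthesis genes and 2 genes of oxidation in each aorta array at 15 months (y axes, log2 scale), in BN, the 2 FBN arrays over 20 mg and the 4 under 20 mg; lines are geometric means. For Me1, Slc25a1, Fasn and Lss the heavier FBN arrays lie below BN (Me1 15139.7 and 17492 against 34373 to 51300.3). For Acads both and for Ndufb9, a complex I gene, 1 of them lies within the BN range. The genes shown do not stand for their lists. Both heavier arrays lie below BN in 9 of 21 genes of fatty acid and triglyceride synthesis. In fatty acid oxidation they do so in 7 of 20.

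Genes that burn fatty acids had the larger falls where tissue mass was low. Of 20 tested genes of mitochondrial fatty acid oxidation 18 were lower and 0 higher (background 11.4% lower), with a median of -1.48. The median was -2.20 in the lighter FBN arrays and -0.24 in the heavier ones. In the heavier pair 0 genes were called (0 at an unadjusted p under 0.05, and 0.933% called over all probe sets). Eci1, an isomerase of the pathway, differed by -1.90 ± 0.41 (adjusted p = 0.00282), from 31661, 26629, 31388, 39385 and 46478 in BN to 16505 and 24245 in the heavier and 4772 to 8519 in the lighter FBN arrays. Decr1, the dienoyl-CoA reductase, had signals of 50700.2, 43607, 45824, 58519 and 61492 in BN, 26015 and 36279 in the heavier and 5466 to 15026 in the lighter FBN arrays (-2.01 ± 0.46, adjusted p = 0.00478). Acads, the short-chain acyl-CoA dehydrogenase, differed by -1.85 ± 0.50 (adjusted p = 0.0124), from 8803, 7343, 8369, 9509.6 and 11382 in BN to 7472 and 7513 in the heavier and 1021 to 2206 in the lighter FBN arrays. Both heavier arrays lay below BN in 7 of the 20 genes, Eci1 and Decr1 among them (background 7.76%). The lighter FBN arrays were lower than the heavier in 18 of the 20 genes (background 14.9%). In mesenteric artery the list's median was 0.27 and 0 genes were called (2 at an unadjusted p under 0.05).

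Respiratory chain genes showed the same split. Of 42 tested complex I genes 24 were lower and 0 higher (median -0.85), and of 42 genes of complexes II to V 32 were lower and 0 higher (median -0.85). Over all tested probe sets 11.4% were lower and 10.1% higher. In the heavier FBN arrays the medians were -0.01 and -0.11 and 0 genes were called (0 and 0 at an unadjusted p under 0.05, and 0.933% called over all probe sets). In the lighter ones the medians were -1.27 and -1.24. Ndufa3, a complex I subunit, had signals of 24803, 21108, 26717, 25739.5 and 29444 in BN, 20703 and 21618 in the heavier and 8015 to 10074 in the lighter FBN arrays (-1.06 ± 0.26, adjusted p = 0.00716). Uqcr10, a subunit of the cytochrome bc1 complex, differed by -1.03 ± 0.27 (adjusted p = 0.0111), from 52252, 51006, 55671, 56371 and 59271 in BN to 42158 and 50212 in the heavier and 17685 to 25196 in the lighter FBN arrays. Of 18 genes of glycolysis and glucose use 12 were lower and 1 higher (background 11.4% and 10.1%). Slc2a4, the insulin-regulated glucose transporter, had signals of 11020.0, 9568, 15033, 13453 and 15033 in BN, 9223 and 9667 in the heavier and 4097 to 4878 in the lighter FBN arrays (-1.12 ± 0.26, adjusted p = 0.00527). Hk1, a hexokinase, was the member that was higher (0.89; -0.07 for the heavier FBN arrays alone), while Hk2, the form of muscle and fat, was lower (-1.88).

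The medians of the brown and general adipocyte genes followed tissue mass, but not every member did. Of 16 tested brown adipocyte markers 9 were lower and 1 higher (median -1.27, 0.02 in the heavier FBN arrays), and of 15 general adipocyte genes 10 were lower and 0 higher (median -1.13, -0.14 in the heavier). The background of these calls was 11.4% lower and 10.1% higher. Both heavier FBN arrays lay below all 5 BN arrays in 1 of the 16 and 3 of the 15 genes (background 7.76%). Ucp1 differed by -0.86 ± 0.30 (adjusted p = 0.0402) over all 6 FBN arrays. Fabp3, which carries fatty acids in the cytosol, differed by -2.53 ± 0.57 (adjusted p = 0.00373), from 24639.8, 23299, 44342, 36587 and 27104 in BN to 5979.8 and 15893 in the heavier and 2123 to 8552 in the lighter FBN arrays. Prdm16, a transcription regulator of brown fat identity, was the member that was higher (1.95 ± 0.58, adjusted p = 0.0199). Its signals were 558, 365, 526, 263 and 269 in BN, 564 and 391 in the heavier and 2195 to 2972 in the lighter FBN arrays. The array labelled FBN replicate 2 lay within the BN range. Adrb3, the beta-3 adrenergic receptor of fat cells, had signals of 12111, 10769, 9949, 10608 and 14067 in BN, 7271 and 9505 in the heavier and 1247 to 4286 in the lighter FBN arrays (-1.68 ± 0.40, adjusted p = 0.00601). Of 27 genes of glutathione and oxidative stress defence 11 were lower and 3 higher (background 11.4% and 10.1%). The glutathione transferase Gstt1 was lower at either tissue mass, with 1092, 1125, 1182, 1160.2 and 1221 in BN, 808 and 555 in the heavier and 797 to 956 in the lighter FBN arrays (-0.54 ± 0.15, adjusted p = 0.0128; the heavier alone -0.79, adjusted p = 0.0382). Gsta1 was higher (0.54 ± 0.11, adjusted p = 0.00155) and Gsta4 lower (-1.13 ± 0.24, adjusted p = 0.0022), both without overlap.

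**Figure D4:**
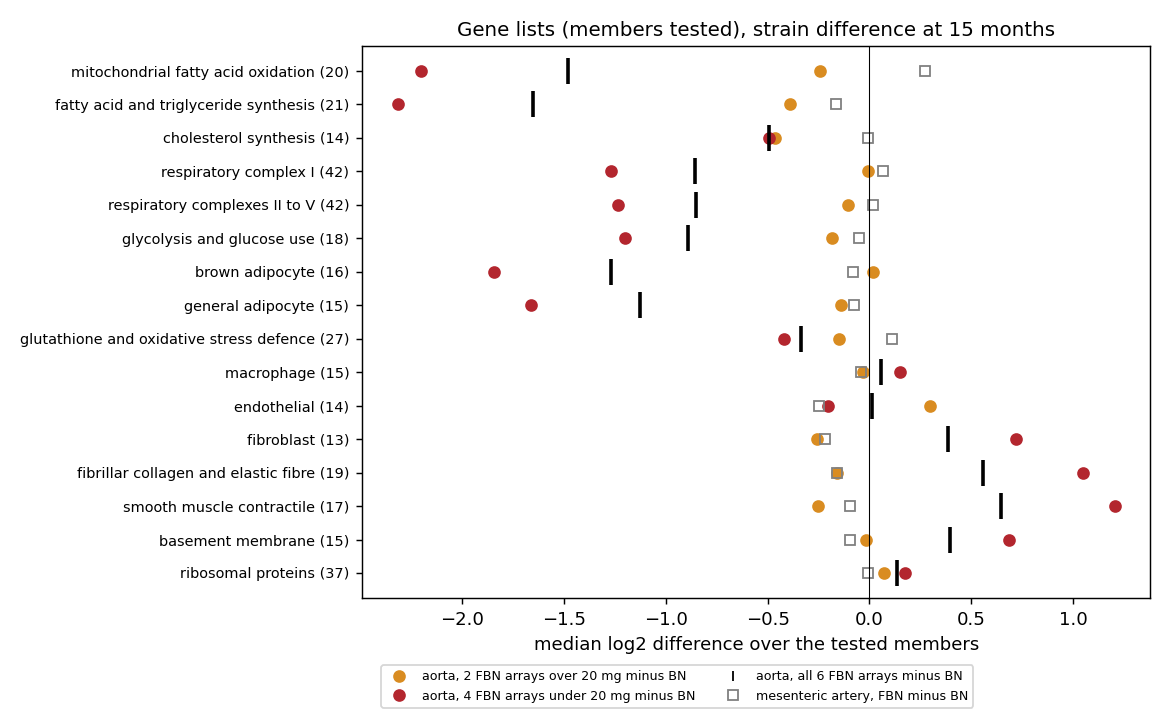
Median log2 difference from BN (x axis) of 16 gene lists (y axis, members tested in brackets) at 15 months, for all 6 FBN aorta arrays, the 2 over 20 mg, the 4 under 20 mg, and mesenteric artery. Fatty acid oxidation lies at -0.24 in the heavier and -2.20 in the lighter FBN arrays, whereas cholesterol synthesis lies at -0.46 and -0.49. Single cholesterol synthesis genes differed between the lighter and heavier FBN arrays in both directions.

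Most of the genes with the largest falls were dimmer in the lighter FBN arrays than in the heavier ones. Acsf2, an acyl-CoA synthetase, differed by -2.87 ± 0.52 (adjusted p = 0.000506), from 17393, 10963, 11462, 17875 and 20874 in BN to 3225 and 3923 in the heavier and 1001 to 3184 in the lighter FBN arrays. Rap1gap, which switches off the GTPase Rap1, had signals of 2229, 1168, 1382, 2545 and 3172 in BN, 509.9 and 428 in the heavier and 88.8 to 270.3 in the lighter FBN arrays (-3.03 ± 0.50, adjusted p = 0.000168). Adtrp, a lipid hydrolase, differed by -3.03 ± 0.67 (adjusted p = 0.0032), from 3577, 2820.0, 5446, 5389 and 5075 in BN to 596 and 2559 in the heavier and 201 to 754 in the lighter FBN arrays. These 3 genes were apart between the strains at either mass, although the array labelled FBN replicate 2 came close to BN for Adtrp. Mb, the oxygen store myoglobin, had signals of 1602, 2471, 2035, 4846 and 3921 in BN, 629.8 and 1208 in the heavier and 86.1 to 387 in the lighter FBN arrays (-3.13 ± 0.71, adjusted p = 0.00416). Popdc3, a cAMP-binding membrane protein, differed by -2.76 ± 0.40 (adjusted p = 2.89e-05), from 1481, 1320.0, 1986, 1531 and 2008 in BN to 391 and 499 in the heavier and 141 to 225 in the lighter FBN arrays. It was also lower in mesenteric artery (-2.49, adjusted p = 0.00503) and at 6 and 24 months (-1.90 and -2.53). Ccl21, a chemokine that guides lymphocytes and dendritic cells, overlapped between heavier and lighter FBN arrays: 2119, 2896, 4156, 3534 and 3356 in BN, 1360.1 and 427 in the heavier and 99.6 to 836 in the lighter FBN arrays (-2.83 ± 0.49, adjusted p = 0.000326). With the brown adipocyte score as a covariate it differed by -2.61 (adjusted p = 0.00262). The secretoglobin Scgb1c1 (-2.88 ± 0.82), the keratin Krt79 (-2.75 ± 0.70) and the fatty acid binding gene Fabp12 (-2.56 ± 0.65) were lower without overlap. The ciliary genes Crocc (-2.86 ± 0.87) and Odad4 (-2.85 ± 0.75) were lower with overlap, as the array labelled FBN replicate 2 lay within the BN range.

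Smooth muscle and elastic matrix genes were counted next, beside the background of 10.1% higher and 11.4% lower. Of 17 smooth muscle genes 0 were called (median 0.65); by unadjusted p-values under 0.05 it was 4, and in the lighter FBN arrays 10 were higher and 1 lower (background 26.8% and 22.1%). Myh11 and the other contractile genes overlapped between the strains, and Mylk, myosin light chain kinase, was the 1 member below all BN arrays in every FBN array (-0.21 ± 0.08, adjusted p = 0.0515; 0.03 with quantile normalization). Of 19 genes of fibrillar collagen and elastic fibres 0 were called (4 at an unadjusted p under 0.05), with a median of 0.56 over all FBN arrays, -0.16 in the heavier and 1.05 in the lighter ones, where 13 were higher and 1 lower (background 26.8% and 22.1%). Of 13 fibroblast genes 0 were called as well (1 unadjusted), and of 15 macrophage genes 0 (1 unadjusted). Of 15 basement membrane genes 6 were higher and 1 lower (background 10.1% and 11.4%). Hspg2, perlecan, had signals of 2122, 3132, 1939, 2594 and 2106 in BN, 4040.5 and 3351 in the heavier and 4969 to 6517 in the lighter FBN arrays (1.07 ± 0.22, adjusted p = 0.00176). The collagen chain Col4a2 was the lower member (-0.41 ± 0.14, adjusted p = 0.0316). Of 15 matrix proteases and inhibitors 2 were higher, Timp1 (1.30 ± 0.38, adjusted p = 0.0177) and Adamts5 (0.82 ± 0.29, adjusted p = 0.0434), both overlapping. Comp, a cartilage and vessel matrix protein, was the 1 of 10 calcification and bone genes that was called (1.75 ± 0.52, adjusted p = 0.0201), a count near the background of 10.1% higher. Fbln1, fibulin-1 of the elastic matrix, was among the largest rises by 1 probe set (2.68 ± 0.62, adjusted p = 0.0046, with overlap), while its brighter probe set differed by 0.46 (adjusted p = 0.25).

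Vasoactive genes included receptors of vessel tone. Of 18 tested members 6 were higher and 2 lower (background 10.1% and 11.4%). Agtr1b, a type 1 receptor of angiotensin II, differed by 3.57 ± 0.63 (adjusted p = 0.000385), from 10.2, 82.8, 124, 94.9 and 8.02 in BN to 353 and 129.5 in the heavier and 521 to 904 in the lighter FBN arrays. Its BN signals were under 292, the level of the filter, and the value ranged from 1.29 to 4.11 over the alternatives. Pde5a, the phosphodiesterase that ends cyclic GMP signals, had signals of 243, 354, 128, 134 and 152 in BN, 500.2 and 256 in the heavier and 816 to 1108 in the lighter FBN arrays (1.88 ± 0.35, adjusted p = 0.000646). Nos3, the endothelial nitric oxide synthase, was highest in the heavier FBN arrays: 503, 595, 819, 640.0 and 624 in BN, 1947 and 1905 in the heavier and 751 to 1063 in the lighter FBN arrays (0.85 ± 0.28, adjusted p = 0.0303). The heavier arrays alone differed by 1.62 (adjusted p = 0.00735), and the value with the brown adipocyte score as a covariate was 1.54 (adjusted p = 1.04e-08). Of 14 endothelial genes 2 were higher, Nos3 and the transcription factor Erg (0.84 ± 0.24), and 1 lower, the sialomucin Emcn (-0.96 ± 0.32), beside the same background of 10.1% and 11.4%. In the lighter FBN arrays 3 of them were higher and 5 lower (background 26.8% and 22.1%). Tgfb1, a growth factor of matrix production, was 1 of 3 higher genes among 19 of the TGF beta and Notch list, where 1 was lower (background 10.1% and 11.4%). Its signals were 458, 464, 464, 193 and 591 in BN, 930.3 and 557 in the heavier and 831, 847, 1045 and 976 in the lighter FBN arrays. The difference was 1.06 ± 0.21 (adjusted p = 0.0011).

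Immune, stress and growth lists were read beside the share over all probe sets, 10.1% higher and 11.4% lower. The counts of the interferon list lay near those shares. Of 17 interferon-stimulated genes 2 were higher, Isg15 (0.83 ± 0.22) and Irf7 (0.54 ± 0.19), and 2 lower, Stat2 (-0.39 ± 0.13) and Usp18 (-0.91 ± 0.32). Of 20 histocompatibility genes 1 was higher and 2 lower. RT1-Bb, a class II chain, had 816, 656, 964, 770.0 and 966 in BN and 1856, 1145, 1685, 1282, 1823 and 1409.9 in FBN, without overlap (0.87 ± 0.22, adjusted p = 0.00818). B2m, the light chain of class I molecules, was lower (-0.49 ± 0.13, adjusted p = 0.0125). Of 11 complement genes 2 were lower, C6 (-1.82 ± 0.46) and Cfd, which fat cells make (-1.27 ± 0.38). Of 13 inflammatory genes 0 were called (4 at an unadjusted p under 0.05), nor were any of 17 immediate early genes (2 unadjusted) or of 6 NADPH oxidase genes (1 unadjusted). Among 17 clock genes Npas2 was higher (1.36 ± 0.40) and Bhlhe40 lower (-1.44 ± 0.50), both without overlap. The chaperone list (15 genes) held Calr, calreticulin of the endoplasmic reticulum. BN arrays gave 7409, 8205, 7001, 5862 and 6554, the heavier FBN arrays 9359 and 10001 and the lighter ones 9658, 10899, 11015 and 11569.7. Calr thus differed by 0.58 ± 0.10 (adjusted p = 0.000274). Hspd1, the mitochondrial chaperonin, was lower there (-0.84 ± 0.26).

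Of 10 cell cycle genes 1 was higher and 1 lower, near the background of 10.1% and 11.4%. Cdkn1a, the inhibitor p21, was highest in the heavier FBN arrays, 7781 and 6396, with 1447 to 3176 in the lighter ones and 2269.7, 2280.4, 1435, 518 and 879 in BN (1.31 ± 0.42, adjusted p = 0.029; the heavier alone 2.47, adjusted p = 0.00833). Pcna was lower in every FBN array than in any BN array (-0.30 ± 0.09, adjusted p = 0.0186). Of 37 ribosomal protein genes 7 were higher and 1 lower, with a median of 0.14, and 29 were higher after quantile normalization. Markers of other tissues were read as well, beside the same background. Of 10 Schwann cell and neuron genes 2 were lower, Mbp of myelin (-1.44 ± 0.35) and S100b (-1.30 ± 0.39). The members did not move together. Pmp22, also of myelin, differed by 0.40 (adjusted p = 0.0763), and its other probe set was called higher (0.75). Among other uncalled members Sox10 differed by -1.15 and Uchl1 by 0.63. Of 10 skeletal and cardiac muscle genes Myh1 (-0.96 ± 0.18) and Mb were lower and Pln, phospholamban, higher (1.51 ± 0.55). The 4 other probe sets of Myh1 differed by -1.02 to 0.22, and 2 of them were called lower. Of 7 mesothelial and epithelial genes Lrrn4 was lower (-1.47 ± 0.43) and Krt18 higher (0.91 ± 0.31). T and NK cell, B and plasma cell, mast cell and erythrocyte lists had 1 or 2 tested members each, 0 of them called (1 of the T and NK cell genes at an unadjusted p under 0.05). The part of these cell types in other results was not tested.

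For some genes the strain difference of 15 months differed from that of another age. Tested directly, 22 probe sets (0.132%) differed between 15 and 6 months and 118 (0.706%) between 15 and 24 months, 106 of these more positive at 15 months. These tests share the 15-month arrays. Map3k20, a kinase that senses ribosome stress, differed by 2.66 ± 0.38 (adjusted p = 1.76e-05), from 231, 383, 217, 64.2 and 97.5 in BN to 716 and 503 in the heavier and 1174 to 1556 in the lighter FBN arrays. At 6 months its strain difference was 0.18 and at 24 months -1.50, so that the change between 15 and 24 months was 4.16 ± 0.52 (adjusted p = 1.29e-05). Its 2 other probe sets differed by -0.04 and 0.65 at 15 months and were not called. Peli2, a ubiquitin ligase of innate immune signalling, had signals of 594, 516, 288, 573 and 526 in BN, 924 and 1019 in the heavier and 1144 to 1391 in the lighter FBN arrays (1.26 ± 0.17, adjusted p = 9.12e-06). It was lower in FBN at 6 months (-0.48) and at 24 months (-1.49), and the change from 15 to 6 months was 1.73 ± 0.24 (adjusted p = 0.000414). Dyrk2, a kinase that phosphorylates p53, was higher at 15 months (1.03 ± 0.22, adjusted p = 0.00207) and lower at 6 (-0.68) and 24 months (-1.40).

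The group means show where the turns lie. Mean signals of Peli2 in BN were 1428, 499 and 1257 at 6, 15 and 24 months, and in FBN 1039, 1168 and 447. Map3k20 had 652, 199 and 813 in BN and 802, 1123 and 295 in FBN. The low groups were BN at 15 and FBN at 24 months. These 2 groups also had the highest hybridization spike-in signals of the 6 aorta groups, a mean log2 of 13.22 ± 0.124 (n = 5) and 13.00 ± 0.118 (n = 6) against 12.55 to 12.80 in the others; the part of the hybridization in these genes was not tested. Vps52, a subunit of a vesicle tethering complex, was higher at 15 and 6 months. The Vps52 signal was 38.1, 33.2, 41.5, 70.9 and 27.4 in BN, 352 and 279.9 in the heavier FBN arrays and 527, 357, 483 and 437 in the lighter. The difference was 3.31 ± 0.37 (adjusted p = 1.74e-07). Its BN signals too were under the level of the filter, with the same limit on the sizes given. It was 1.78 at 6 months and 0.59 at 24 months (adjusted p = 0.205), and its change between 15 and 24 months 2.72 (adjusted p = 0.00336).

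**Figure D5:**
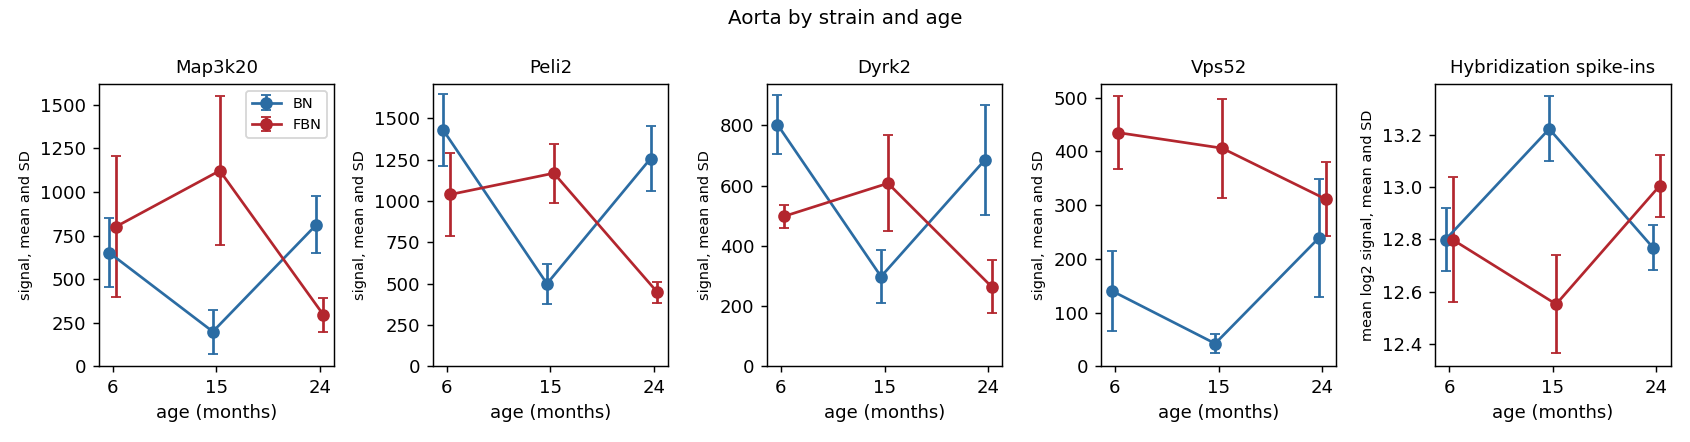
Mean signal and SD of Map3k20, Peli2, Dyrk2 and Vps52, and mean log2 signal and SD of the hybridization spike-ins (y axes), by age in months (x axis) in BN and FBN aorta. BN at 15 and FBN at 24 months are low for the first 3 genes (Peli2 499 and 447) and high for the spike-ins.

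Calcrl, the receptor chain for adrenomedullin and calcitonin gene-related peptide, and Il17rc, an interleukin-17 receptor chain, were the other genes with the largest positive change between 15 and 24 months (3.54, adjusted p = 0.029, and 3.04, adjusted p = 0.0295). At 15 months they were higher in FBN by 1.70 ± 0.59 and 1.79 ± 0.51. In the other direction the stress-responsive factor Nfe2l1 (-0.75), the histone methyltransferases Prdm2 (-1.19) and Kmt5a (-0.89) changed between 15 and 24 months, and Nutf2, a carrier of nuclear import, between 15 and 6 months (-0.86). Of these 4, Kmt5a alone was lower at 15 months itself (-0.65 ± 0.16, adjusted p = 0.00642), and Nfe2l1 differed by -0.12 ± 0.10 (adjusted p = 0.345). The homeobox gene Hoxc5 (2.78 ± 0.65, adjusted p = 0.00492) and the sialomucin Podxl2 (2.74 ± 0.75, adjusted p = 0.0132) were higher at 15 months without overlap, at low signals: 7.71 to 43.5 in BN and 89 to 249.6 in FBN for Hoxc5, 13.8 to 41.7 and 70.5 to 188 for Podxl2, all under the level of the filter, which both genes passed by their mean in mesenteric artery. At 6 and 24 months Hoxc5 differed by 0.21 and -0.14, neither called. Cdk5rap3, a protein of the UFM1 conjugation pathway, was higher with overlap (2.68 ± 0.69, adjusted p = 0.00941).

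Between the vessels the strain difference of 15 months differed in 1841 probe sets (11%), 741 more positive and 1100 more negative in aorta. The most positive genes were Rup2 (3.42, adjusted p = 0.0397), Dmp1 and Podxl2 (2.83), and the most negative Adtrp (-4.15), Mb (-4.13) and Odad4 (-3.81). Rup2 signals in aorta were 376, 237, 65.1, 209 and 72.7 in BN and 663, 704, 783, 692, 322 and 2169 in FBN, with overlap (2.28 ± 0.69, adjusted p = 0.0219). The brown adipocyte score of mesenteric artery at 15 months was 8.34 ± 0.177 in FBN and 8.42 ± 0.158 in BN (n = 6 each), far below that of either aorta group.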

How the data were processed

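The deposited intensity signals of 71 Affymetrix arrays, on a linear scale, were made with GCOS and MAS5, per the submitters' processing notes, with no version named there. Depth does not apply to arrays, and their number limits the precision. The authors' intensity values were taken as deposited and turned into log2 values, with no further normalization. Of 31099 probe sets, 57 controls were left out, and 16717 were tested whose mean log2 signal in either vessel was at or above that of the median probe set (8.19, a signal of 292), 12889 of them with 1 gene symbol (9785 genes). Groups came from the labelled source. Linear models were fitted in R 4.3.3 with limma 3.58.1 (statmod 1.5.0), with trend and robust variance estimates, 1 mean per group over all aorta arrays, or over all 71 arrays where mesenteric artery enters, and Benjamini-Hochberg adjustment over 16717 probe sets at 0.05. Array measures were compared with exact permutation tests. The procedure was tested on simulated data.

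The genes named were the 12 largest rises, the 12 largest falls and the 6 smallest p-values among calls, 3 in each direction for each change between ages or vessels, and up to 4 members of each of 36 lists by smallest p; others were named after their values were seen. In lists the brightest probe set on average stood for each gene. The members and lists were chosen with earlier results of these data known. Alternatives were the filter, an offset, quantile normalization, the variance model, array weights, the arrays in the fit, tissue mass, marker and spike-in covariates, and leaving out each array. No value column was left unused. Promoters came from RefSeq.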

Additional observations from a re-analysis of the deposited data

Results flagged for a closer look

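In 5 of 78 groups of arrays tested, 1 array stood far from the others of its group, measured as its gap to the nearest array over the whole range; chance gives about 1 in 20 groups. For Trio the array labelled FBN replicate 2 lay below the other FBN arrays (0.663 of the range). For Podxl2 BN replicate 2 lay above the other BN arrays (0.763). In tissue mass BN replicate 1, at 20.1 mg, lay below the other BN samples (0.823). In the end to start ratios of Gapdh (0.789) and Actb (0.716) FBN replicate 1 lay apart from the other FBN arrays.

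The strain difference of 15 months differed between aorta and mesenteric artery, by limma's test of that difference, for these named genes, in log2 units as aorta minus mesenteric artery: Dmp1 2.96, Agtr1b 2.72, Vps52 2.21, Itga1 1.15, Hoxc5 2.34, Podxl2 2.83, Cdk5rap3 2.495, Map3k20 2.37, Elovl6 -2.99, Mb -4.13, Adtrp -4.15, Rap1gap -3.22, Acsf2 -2.68, Crocc -3.35, Odad4 -3.81, Ccl21 -2.17, Krt79 -3.38, Fubp3 0.87, Pxmp4 -0.67, Rup2 3.42, Peli2 1.07, Dyrk2 1.32, Calcrl 2.10 and Il17rc 2.21. Between 15 and 24 months in aorta it differed for Vps52 2.72, Map3k20 4.16, Peli2 2.75, Dyrk2 2.44, Calcrl 3.54, Il17rc 3.04, Prdm2 -1.19, Kmt5a -0.89 and Nfe2l1 -0.75, as 15 minus 24 months. Between 15 and 6 months it differed for Map3k20 2.48, Peli2 1.73, Dyrk2 1.72, Nfe2l1 -0.87 and Nutf2 -0.86.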

How the results depend on the processing

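The numbers of calls depended on the fit. Against 1689 higher and 1901 lower calls at 15 months, a fit of only the arrays of the comparison gave 1080 and 1225, tissue mass as a covariate 372 and 319, only arrays of at least 20 mg 80 and 42, the brown adipocyte score as a covariate 525 and 479, the poly-A spike-ins as a covariate 3123 and 2875, the hybridization spike-ins 409 and 886, the 4 lighter FBN arrays alone 4473 and 3688 and the 2 heavier 99 and 57. One fit of all 71 arrays gave 3264 higher calls. Leaving out 1 array gave 777 to 3744 higher and 857 to 3101 lower calls, with the highest counts without the array labelled FBN replicate 2. The share of calls that were higher, 47.0%, was 65.6% with only arrays of at least 20 mg, 63.5% for the 2 heavier FBN arrays and 31.6% with the hybridization spike-ins. The cause was not tested.

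The 22 calls of the difference between 15 and 6 months became 11 with no filter, 11 with the stricter filter, 12 with array weights, 6 with only the arrays of the comparison, 72 in the fit of all arrays, 38 with tissue mass, 1 with only arrays of at least 20 mg and 155 with the brown adipocyte score. Leaving out 1 array gave 10 (BN replicate 2 of 15 months) to 35 (FBN replicate 4 of 6 months). The 118 calls between 15 and 24 months became 33 with the stricter filter, which tests fewer probe sets, 183 with tissue mass, 19 with only arrays of at least 20 mg, 360 with the brown adipocyte score and 28 with the poly-A spike-ins. Leaving out 1 array gave 75 (BN replicate 3 of 15 months; 77 without BN replicate 5) to 136. The 1841 calls between the vessels became 2866 with array weights and 3996 with the poly-A spike-ins. They ranged from 801 (without FBN replicate 6) to 5005 (without FBN replicate 2) when 1 array was left out, with 3000 without FBN replicate 1, 820 and 892 without FBN replicates 4 and 5 and 974 and 981 without BN replicates 4 and 5.

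Leaving out 1 array put the poly-A difference at -0.28 to -0.17, the Actb ratio at -0.58 to -0.44 and the hybridization spike-ins at -0.71 to -0.62. Without FBN replicate 1 the first (-0.28) and the second (-0.58) passed the exact permutation test, and without any 1 BN array the third (-0.63 to -0.70) no longer passed after adjustment, where fewer groupings allow a larger smallest p.

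With the hybridization spike-ins as a covariate, an alternative added after the data were seen, these genes changed to a difference above 0: Adtrp 0.17, Scgb1c1 0.76, Crocc 0.78, Odad4 0.91, Fabp12 0.31, Fabp3 0.12, Letmd1 0.79, Cox8b 0.46, Slc36a2 0.52, Lgals12 0.34, Fabp4 0.39, Trarg1 0.51, Dgat2 0.45, Emcn 0.56, S100b 0.47, Myh1 0.077, Lrrn4 0.28, Ndufa3 0.49, Ndufv3 0.64, Ndufaf1 0.46, Ndufb9 0.54, Uqcr10 0.45, Cox6a1 0.54, Cox7c 0.47, Eci1 0.20, Decr1 0.18, Eci2 0.49, Acads 0.88, Nsdhl 0.40, Gpi 0.34, Slc2a4 0.41, Pgam1 0.36, Pfkp 0.42, Usp18 0.56, B2m 0.19, RT1-DMa 0.30, Cfd 0.52, Hspd1 0.59, Bhlhe40 0.15, Gsta4 0.10, Sod1 0.36, Adrb3 0.0061, Hey1 0.70, Ucp1 0.79, Acss2 0.14, Acaca 0.18, Acly 0.33, Agpat2 0.74, Thrsp 0.41, Insig1 0.35 and Hk2 0.93. These changed to one below 0: Cdk5rap3 -0.16, Erg -0.14, Clec3b -0.92, Pln -1.44, Krt18 -0.13, Col5a1 -1.21, Fbln5 -1.92, Hspg2 -0.13, Lamb2 -0.55, Lama5 -0.71, Timp1 -0.999, Adamts5 -0.56, C1r -1.34, Npas2 -0.56, Adra1b -0.39, Comp -0.60, Ibsp -2.54, Smad3 -0.035, Smad7 -0.10, Hk1 -0.65, Prdm16 -0.81, Myh11 -1.30 and Il17rc -0.019. The cause was not tested. A further 35 differences, called in neither fit, changed sign there, Sqle among them. With the 2 heavier FBN arrays, in the fit of all aorta arrays or of only those of at least 20 mg, Ucp1 was 0.039 and Hk1 -0.072, and 20 uncalled differences changed sign, as did 23 with the brown adipocyte score, 6 with tissue mass, 3 with quantile normalization, 1 with the 4 lighter arrays and up to 2 when 1 array was left out. In the other alternatives run none of the 186 did. Of the 125 called differences 16 kept direction and call with the 2 heavier arrays and 107 direction only, against 121 that kept both under quantile normalization and 125 with an offset of 50 added. No paired analysis was possible because nothing in the labels ties an FBN array to a BN array.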
